A study of Mus musculus with 6 samples.

Results

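The cluster of miR-212 and miR-132 gives 4 mature miRNAs, the arms mmu-miR-132-3p, mmu-miR-132-5p, mmu-miR-212-3p and mmu-miR-212-5p. They were found by name among the 1189 miRNA entries measured in the prefrontal cortex of aged mice, and all 4 were listed with reads in every library. Small RNA libraries were made from 3 mice of the postoperative neurocognitive disorder (PND) group and 3 mice of the control (CON) group, with 1 library per mouse. All mice were male wild type C57BL/6 mice, 18 months old by the recorded age, although the sample names carry another age. Mice of the PND group breathed 1.5% isoflurane for 30 min and then underwent an exploratory laparotomy of 30 min, also under isoflurane. Lidocaine cream was put on the wound afterwards. The CON group received neither anesthesia nor operation as treatment, so that isoflurane and surgery cannot be told apart here. By the study's methods, mice were also under deep isoflurane anesthesia when the tissue was taken, with no exception named for the CON group. The study describes fear conditioning with foot shocks before the operation and behavioral tests after it. The last of these was a maze test of spatial memory that ran over several days. The tissue was taken shortly after the maze test, that is, days rather than hours after the operation.

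The hairpins of miR-132 and miR-212 are cut from 1 primary transcript, whose transcription in neurons is induced by synaptic activity and by brain-derived neurotrophic factor through the transcription factor CREB. Each hairpin is diced into a duplex, and each strand of the duplex can be loaded into an Argonaute protein, where bases 2 to 8 of the miRNA (the seed) pair with target mRNAs. miR-132-3p is known to promote dendrite growth and spine formation in neurons.

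The sequences are shown because the arms fall into a pair that shares a seed and a pair that does not. All 4 matched the RefSeq miRNA table by name, and capitals mark bases 2 to 8.
miR-132-3p: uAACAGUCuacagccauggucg
miR-212-3p: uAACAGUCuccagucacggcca
miR-132-5p: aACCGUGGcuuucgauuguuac
miR-212-5p: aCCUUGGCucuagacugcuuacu

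The 3p arms had the same seed, and none of the other mature miRNAs in that table, which holds 1679, carried it. Over their 22 bases, 17 were the same. The differences from miR-132-3p to miR-212-3p, counted from 1 at the 5′ end of miR-132-3p, were A10C, C14U, U17C, U20C and G22A. The seeds of the 5p arms were shared with no other listed mature miRNA. When base 1 of miR-212-5p was set against base 2 of miR-132-5p, 14 of 21 bases were the same, and the difference G5U, counted on miR-132-5p, fell within both seeds. Reads of the 4 arms therefore differed from each other at 5 or more bases of these alignments.

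In GRCm38 (the build of the RefSeq table, GRCm38.p6), the Mir212 hairpin lies on the plus strand of chromosome 11 from 75173388 to 75173478 and the Mir132 hairpin from 75173682 to 75173747, with 203 bases between them. In the GENCODE release M21 annotation both hairpins lie inside the first intron (75172598 to 75173977) of the non-coding gene 1700016P03Rik, on the same strand, and in no exon. The mature arms cover 75173403 to 75173425 (miR-212-5p), 75173443 to 75173464 (miR-212-3p), 75173686 to 75173707 (miR-132-5p) and 75173723 to 75173744 (miR-132-3p). In a minimum free energy fold by RNAfold, the Mir212 hairpin of 91 bases reached -41.5 kcal/mol and the Mir132 hairpin of 66 bases -37.2 kcal/mol. In these folds 18 bases were paired in miR-132-3p, in miR-132-5p and in miR-212-5p, and 16 in miR-212-3p.

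**Figure D1:**
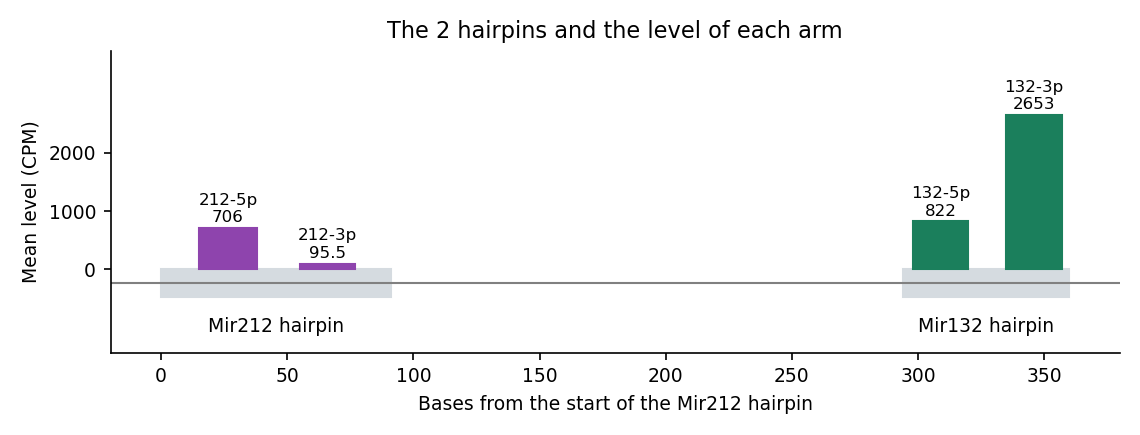
The horizontal axis is the distance in bases from the start of the Mir212 hairpin, grey boxes are the hairpins, and the height of each colored bar is the mean level of that arm over the 6 mice in CPM. The 3p arm stands higher in Mir132 (2653 against 822 CPM) and the 5p arm in Mir212 (706 against 95.5 CPM).

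Levels are given in CPM, reads of a miRNA per 1000000 reads on all entries, as deposited by the authors. The libraries held 14849461 to 19471226 such reads, and 3 reads, taken as the floor of detection, corresponded to 0.154 to 0.202 CPM. All 5 neuron markers (miR-124-3p, miR-128-3p, miR-9-5p, miR-138-5p and miR-218-5p) were present in every library, with a summed level of 301035 to 329984 CPM in PND and 324932 to 382723 CPM in CON. Most of this sum was miR-128-3p, with a log2 fold change of -0.29 in PND over CON, whereas those of the other 4 markers were 0.24 (miR-124-3p), 0.09 (miR-9-5p), 0.32 (miR-138-5p) and 0.25 (miR-218-5p), and 0 of the 5 passed an unadjusted p of 0.05 in limma. The 5 epithelial markers of the miR-200 family summed to 861 CPM in CON mouse 1 and to 27.3 to 36.7 CPM in the other 5 mice, and 1 of the 5 had no read in at least 1 library. In CON mouse 2, miR-128-3p took 29.2% of the reads, against 17.6% to 23.2% elsewhere. The part of these libraries in the results was not tested beyond leaving each mouse out. In bulk tissue, fewer cells that make a miRNA and less miRNA per cell cannot be told apart.

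miR-132-3p was the most abundant arm of the cluster. Its level was 2642, 2739 and 2381 CPM in PND and 2890, 2881 and 2386 CPM in CON, from 38393 to 51434 reads per library, and ranked between the 41st and the 48th of the 1189 entries. The highest values were those of CON mouse 1 and CON mouse 2, the lowest those of PND mouse 3 and CON mouse 3, and the groups overlapped. The group levels were 2587 ± 185 CPM (SD, n = 3) in PND and 2719 ± 289 CPM (SD, n = 3) in CON.

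miR-212-3p, which carries the same seed, had 97.0, 109 and 103 CPM in PND and 106, 81.6 and 75.6 CPM in CON, from 1212 to 1918 reads. The PND mice lay close together, whereas CON mouse 1 had a level within the PND range and CON mouse 2 and CON mouse 3 lay below it. The group levels were 103 ± 5.98 CPM (SD, n = 3) in PND and 87.9 ± 16.3 CPM (SD, n = 3) in CON. Together the 3p arms supplied 2461 to 2997 CPM with this seed, and miR-132-3p made up 95.8% to 97.2% of it.

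miR-132-5p was the least variable arm, with 818, 862 and 826 CPM in PND and 830, 810 and 784 CPM in CON. The highest value was in PND mouse 2 and the lowest in CON mouse 3, and the groups overlapped, with 836 ± 23.3 CPM (SD, n = 3) in PND and 808 ± 22.9 CPM (SD, n = 3) in CON. miR-212-5p, the preferred arm of its hairpin in these libraries, had 777, 684 and 649 CPM in PND and 676, 804 and 644 CPM in CON. PND mouse 1 and CON mouse 2 were high, 1 in each group, and the group levels were 703 ± 65.9 CPM (SD, n = 3) in PND and 708 ± 84.4 CPM (SD, n = 3) in CON.

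**Figure D2:**
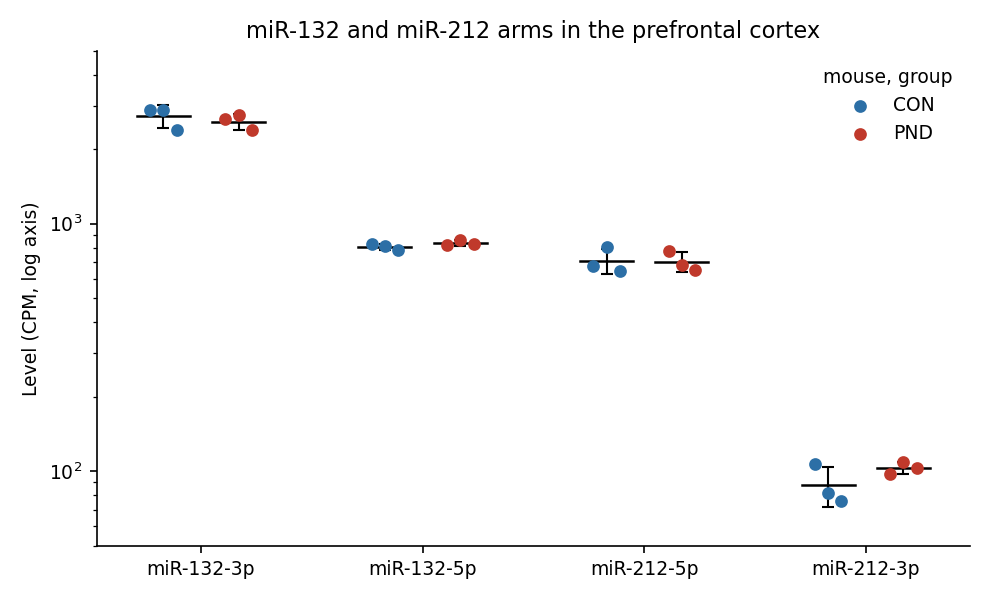
Each point is 1 mouse, the vertical axis is the level in CPM on a log axis, and the black lines give the group mean and SD (n = 3). The order of the arms is the same in both groups, and the points of PND and CON overlap for all 4.

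The order of levels was the same in every mouse. miR-132-3p exceeded miR-132-5p by 2.88 to 3.56 times, miR-132-5p exceeded miR-212-5p by 1.01 to 1.27 times, and miR-212-5p exceeded miR-212-3p by 6.27 to 9.85 times. Each step held in 6 of 6 mice. The order was read from the mean levels of these same mice, so no p is given for the 3 steps. The ranges of miR-132-5p and miR-212-5p overlapped across mice, and in CON mouse 2 miR-132-5p was only 1.01 times the level of miR-212-5p. The arms are of nearly equal length, 22 or 23 bases, and were compared as reads, with no correction for how well each sequence was captured in the library.

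The arms differed in how much they varied between mice. On the CPM scale the coefficient of variation over 6 mice was 8.61% for miR-132-3p, 3.13% for miR-132-5p, 14.5% for miR-212-3p and 9.61% for miR-212-5p. Counting error alone came to 0.474%, 0.85%, 2.49% and 0.917%, in the same order. Among the 361 entries with a mean of at least 10 CPM, 1.39% had a smaller SD on the log2 scale than miR-132-5p, 29.1% than miR-132-3p, 32.7% than miR-212-5p and 54.0% than miR-212-3p.

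The hairpins differed in which arm was the more abundant. For miR-132 the 3p arm held 76.4%, 76.1% and 74.2% of the reads of both arms in PND and 77.7%, 78.1% and 75.3% in CON. For miR-212 the 5p arm held 88.9%, 86.2% and 86.3% in PND and 86.4%, 90.8% and 89.5% in CON. The arm preference thus pointed in opposite directions for the 2 neighboring hairpins in all 6 mice.

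The same ratio was computed as log2 of (3p + 1 CPM) over (5p + 1 CPM). It covered the 153 miRNAs whose 3p and 5p arms were listed under the same name at a mean of at least 1 CPM each. Arms named by gene copy, such as let-7f-1-3p, were not paired and are not among the 153. The 3p arm was the higher one in 76 of them and the 5p arm in 77, and the median difference between arms was 9.21-fold. The mean log2 ratio was 1.69 ± 0.12 (SD, n = 6) for miR-132 and -2.88 ± 0.28 (SD, n = 6) for miR-212. A more unequal ratio was found in 72.5% of the 153 miRNAs for miR-132 and in 52.9% for miR-212. The ratio of miR-132 varied little between mice, as 13.1% of the miRNAs had a smaller SD, against 60.1% for miR-212.

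The arm ratios were then compared between the groups with limma over the 153 miRNAs. The log2 ratio of miR-132 was 1.63 ± 0.09 (SD, n = 3) in PND and 1.74 ± 0.12 (SD, n = 3) in CON, a difference of -0.12 (standard error 0.15, 95% interval -0.45 to 0.22, adjusted p = 0.72 from limma). The log2 ratio of miR-212 was -2.75 ± 0.20 (SD, n = 3) in PND and -3.005 ± 0.32 (SD, n = 3) in CON, a difference of 0.25 (standard error 0.19, 95% interval -0.19 to 0.69, adjusted p = 0.66 from limma). Neither passed an unadjusted p of 0.05, a limit that 3.27% of the 153 miRNAs passed (5 of 153), and 0% of them had an adjusted p under 0.05. Both groups overlapped for both ratios. The size of the miR-212 difference depended on single mice. Without CON mouse 2, the mouse with the high share of miR-128-3p, it was 0.11 (unadjusted p = 0.57, adjusted p = 0.997 from limma). Without CON mouse 1 it was 0.42, with an unadjusted p of 0.040 and an adjusted p of 0.44 from limma, in a fit where 12 of the 153 miRNAs passed an unadjusted p of 0.05.

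The level of each arm was compared between PND and CON by limma on log2(CPM + 1) of all 1189 entries. Of the 4 arms, 0 passed an unadjusted p of 0.05, which 5.13% of all entries did. Likewise 0 passed this limit together with a change of more than 2-fold (0.0841% of all entries), 0 had an adjusted p under 0.05 (0.421% of all entries), and 0 had groups that did not overlap (9.92% of all entries). By edgeR's quasi-likelihood test and by DESeq2 on the recovered reads, 0 of the 4 also had an unadjusted p under 0.05.

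miR-132-3p had a log2 fold change of -0.07 in PND over CON (standard error 0.11, 95% interval -0.33 to 0.19, adjusted p = 0.88 from limma), an interval from 0.796-fold to 1.14-fold. For miR-132-5p the log2 fold change was 0.05 (standard error 0.09, 95% interval -0.16 to 0.26, adjusted p = 0.90 from limma). For miR-212-5p it was -0.01 (standard error 0.12, 95% interval -0.30 to 0.28, adjusted p = 0.98 from limma). On the CPM scale the largest difference was that of miR-212-3p, with a log2 fold change of 0.24 (standard error 0.15, 95% interval -0.11 to 0.60, adjusted p = 0.77 from limma), an interval from 0.924-fold to 1.51-fold. The 95% intervals of all 4 arms thus lay inside the 2-fold limit in either direction.

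The size of the miR-212-3p difference also depended on single controls. When CON mouse 1 was left out, its log2 fold change rose to 0.39 (standard error 0.10, unadjusted p = 0.012, adjusted p = 0.57 from limma). The 3 PND mice (97.0 to 109 CPM) then lay above the other CON mice (75.6 and 81.6 CPM). This separation follows from leaving out the only control within the PND range and is no further result. In that fit 91 of the 1189 entries passed an unadjusted p of 0.05, against 61 with all mice. Without CON mouse 3 the log2 fold change of miR-212-3p was 0.14 (unadjusted p = 0.40, adjusted p = 0.75 from limma), and with any other mouse left out it lay between 0.20 and 0.29.

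The direction of the miR-132-5p difference depended on how the libraries were scaled. The median log2 fold change of the 361 entries with a mean of at least 10 CPM was 0.14 on the CPM scale and 0.02 after scaling by TMM factors. Relative to the median on the CPM scale, the log2 fold change was -0.20 for miR-132-3p, -0.09 for miR-132-5p, -0.14 for miR-212-5p and 0.11 for miR-212-3p. These values also depended on single mice. Without CON mouse 2 the median was 0.04, and they were -0.067 for miR-132-3p, 0.0076 for miR-132-5p, 0.044 for miR-212-5p and 0.15 for miR-212-3p. Without CON mouse 3, miR-212-3p was -0.013 relative to the median. The sign of miR-132-5p was positive on the CPM scale and negative with TMM factors, with DESeq2 size factors, with a total that left out miR-128-3p and with a scaling to the neuron markers, and the other 3 arms kept their sign in these 4 scalings. miR-132-3p differed more than miR-212-3p with TMM factors (-0.19 against 0.12), with DESeq2 size factors (-0.22 against 0.09) and with the scaling to the neuron markers (-0.19 against 0.12).

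**Figure D3:**
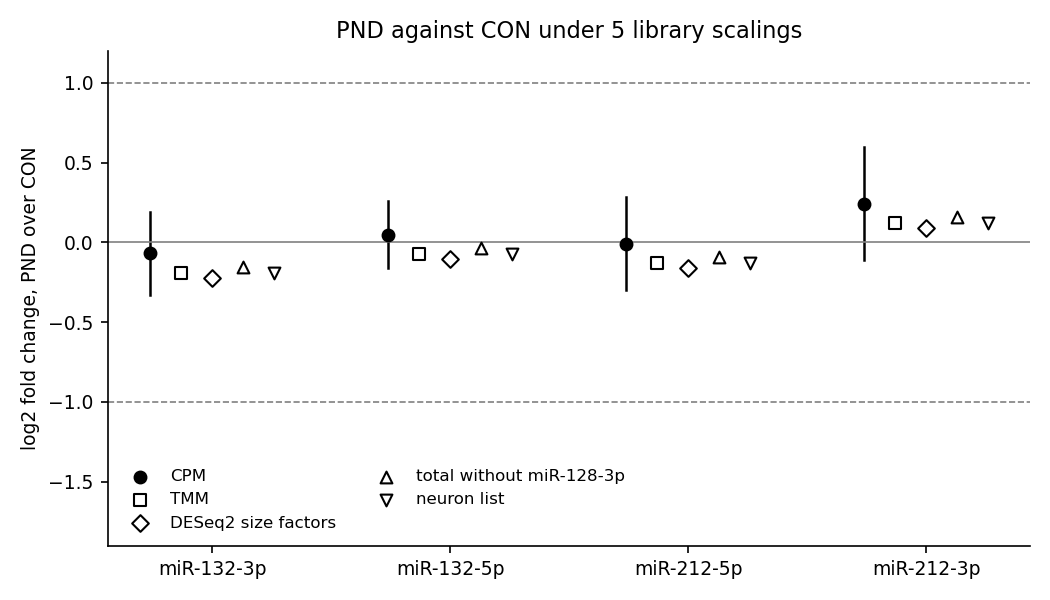
The vertical axis is the log2 fold change of PND over CON for each arm, the filled circle is the value on log2(CPM + 1) with its 95% interval from limma, open symbols are other scalings of the libraries, and dashed lines mark a 2-fold change. All points lie between -0.22 and 0.24, and miR-132-5p is above 0 on the CPM scale only.

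The members were also summed and set against each other within each mouse. The 4 arms came to 4333, 4394 and 3961 CPM in PND and 4502, 4576 and 3889 CPM in CON, or 0.389% to 0.458% of a library. The group sums were 4229 ± 235 CPM (SD, n = 3) and 4323 ± 377 CPM (SD, n = 3), and the mice of the groups overlapped (two-sided exact permutation test, p = 0.6). miR-132 exceeded miR-212, summed over both arms, by 3.96 to 4.75 times.

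The level of miR-132-3p was 27.2, 25.1 and 23.0 times that of miR-212-3p in PND and 27.2, 35.3 and 31.5 times in CON. PND mouse 1 and CON mouse 1 were close to each other, and CON mouse 2 and CON mouse 3 were above all PND mice. The log2 ratio was lower in PND by 0.31 on average (two-sided exact permutation test, p = 0.2), with PND lower in 8 of 9 pairs of mice. This was 1 of 8 exact permutation tests, over the 4 arms, their sum, the arm ratios and this ratio. The raw p lay between 0.2 and 1, the smallest p that 3 mice against 3 allow was 0.1, and the Benjamini-Hochberg adjusted p lay between 0.48 and 1.

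The list of activity-regulated miRNAs held 11 others, among them miR-134-5p (a regulator of dendritic spine size) and miR-381-3p of the same imprinted miRNA cluster. Whether each of the 11 responds to activity in this cortex was not tested. Of the 11, 0 passed an unadjusted p of 0.05 in limma, against 48 higher and 13 lower in PND among all 1189 entries. The median log2 fold change of the 11 was 0.00, against 0.05 for all entries and 0.14 for the 361 entries with a mean of at least 10 CPM. miR-134-5p had 115, 109 and 112 CPM in PND and 111, 95.2 and 98.8 CPM in CON (log2 fold change 0.14, standard error 0.11, adjusted p = 0.77 from limma). The 3 members of this list from the miR-183 cluster were highest in CON mouse 1, the mouse with the high miR-200 sum, where miR-183-5p had 462 CPM against 17.8 to 70.0 CPM elsewhere. None of the 4 arms of miR-132 and miR-212 stood apart in that mouse to this extent, as its values for them were 0.958 to 1.11 times the mean of all 6 mice. Within CON, however, its miR-212-3p level (106 CPM) lay above those of the other controls (81.6 and 75.6 CPM). Leaving this mouse out moved the log2 fold change of miR-212-3p from 0.24 to 0.39.

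The profile over the 6 libraries was compared with that of the other entries of at least 10 CPM (360 for each arm), as the root-mean-square difference of centered log2(CPM + 1). Nearest to miR-132-3p were let-7d-5p at 0.04, miR-26a-5p at 0.05, and let-7b-5p, let-7e-5p and miR-22-5p at 0.06, where the median of all entries was 0.24. In this order miR-132-5p was the 33rd, miR-212-5p the 35th and miR-212-3p the 154th. Nearest to miR-212-3p were miR-425-3p at 0.07, miR-3083-5p at 0.08, and miR-674-5p, miR-9-3p and an entry without a miRBase name at 0.09, against a median of 0.21. Here miR-132-5p was the 77th, miR-132-3p the 154th and miR-212-5p, the other arm of the same hairpin, the 251st. By Pearson's r, which does not depend on the size of the variation, miR-132-5p was the 9th, miR-132-3p the 268th and miR-212-5p the 325th. No arm of the cluster was among the 5 nearest to either 3p arm over these mice, whose libraries also share their differences in composition.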

How the data were processed

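For each mouse the authors deposited 1 CPM value per miRNA (reads per 1000000 reads on all entries), a unit that the methods of the study call TPM. The reads were filtered with fastx, aligned with Bowtie (version 0.12.2 in the submitters' processing notes, which also name mm8 and mm9) and assigned to known miRNAs by miRBase position. TMM is described as a step before the division, but no trace of it was left, since every column summed to 1000000 within rounding. The rule for reads matching several places is not given in the sources used here. The labels name a kit for total RNA, the methods one for small RNA.

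All values (100%) in each library came out as whole numbers of reads (tolerance 0.01 reads), so reads could be recovered for depth and for count tests, which are alternatives. The main test was limma 3.58.1 (R 4.3.3, trend) on log2(CPM + 1) without covariates or filter, with Benjamini-Hochberg adjustment over all entries. Arm ratios were fitted likewise. Single values were compared by exact permutation over mice (scipy 1.17.1). Alternatives used edgeR 4.0.16 and DESeq2 1.42.0, and the fits were tested on simulated data. Folds came from RNAfold 2.7.2. The lists of neuron, epithelial and activity-regulated miRNAs and the rule for the nearest profiles were written down in the analysis plan, and the members and lists were chosen with earlier results of these data known. Marker lists for oligodendrocytes, leukocytes, red blood cells, endothelium and mural cells are given among the other observations. Nearest profiles were ranked by root-mean-square difference, with Pearson's r as a description. Same-numbered mice did not deviate together uniformly (correlations of -0.13, 0.12 and 0.51 over 361 entries), so numbers were not used as pairs.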

Additional observations from a re-analysis of the deposited data

How the results depend on the processing

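None of the 4 arms reached an adjusted p under 0.05 in any of the 20 alternatives, and none reached an unadjusted p under 0.05 in any except 1. That exception was miR-212-3p without CON mouse 1, so that with 1 mouse left out between 0 and 1 arms passed that limit, against 31 to 91 of all 1189 entries in the same fits (91 without CON mouse 1). miR-132-3p was lower in PND in all 20 alternatives (log2 fold change -0.23 to -0.01) and miR-212-3p higher in all 20 (0.08 to 0.39). These 20 were not independent checks of direction. The filters on entries, limma without trend and the replicate block left the fold change as it was and changed only its standard error and p. The ratio of the group means reused the p of the main fit. miR-132-5p turned negative with TMM factors (-0.073), DESeq2 size factors (-0.10), a total without miR-128-3p (-0.036), a scaling to the neuron markers (-0.074), edgeR's quasi-likelihood test (-0.078) and exact test (-0.078), DESeq2 (-0.11) and limma-voom (-0.072), and each of these changes how the libraries are scaled. With 1 mouse left out, miR-212-5p lay between -0.081 and 0.087, changing sign without PND mouse 2, PND mouse 3 or CON mouse 2, and the log2 difference of the summed arms lay between -0.10 and 0.017. The arm ratio kept its direction in all 9 alternatives for miR-132 (-0.19 to -0.07) and for miR-212 (0.11 to 0.42). Of these 9, the filter on the arms and the replicate block could not change the difference. With the replicate number as a replicate block, the log2 fold change of miR-212-3p stayed at 0.24 (limma adjusted p = 0.78, standard error 0.17). The block changed no call of the 4 arms or of the arm ratios of miR-132 and miR-212. Over all arm ratios, however, 15 passed an unadjusted p of 0.05 in limma with the block, against 5 without it.

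The share of all entries called, by contrast, depended on the fit. An unadjusted p under 0.05 was found for 61 entries in limma and for 5 to 91 in the alternatives, with more than 2-fold change for 1 and for 0 to 42, an adjusted p under 0.05 for 5 and for 0 to 5, and for arm ratios an unadjusted p under 0.05 for 5 and for 2 to 15. Values in CPM are relative to the library, and the intervals rest on 3 mice a group.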

Other observations

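Markers of oligodendrocytes, endothelium, mural cells, leukocytes and microglia, and red blood cells were also summed. The 3 oligodendrocyte markers came to 1575 to 1765 CPM in PND and 1384 to 1607 CPM in CON, and the 2 endothelial markers to 13326 to 13992 CPM and 11991 to 14372 CPM. The 2 mural cell markers summed to 8727 to 9898 CPM in PND and 6689 to 9670 CPM in CON. Of these, miR-145a-5p was higher in PND at an unadjusted p under 0.05 in limma (log2 fold change 0.34). Its groups only just failed to overlap, with 234.4 CPM in PND mouse 1 against 233.9 CPM in CON mouse 3. Among all entries, 5.13% passed that limit and 9.92% had groups that did not overlap. For the other mural marker, miR-143-3p, the log2 fold change was 0.26 and the groups overlapped. The 4 leukocyte and microglia markers summed to 299 to 331 CPM in PND and 279 to 328 CPM in CON. Most of this sum was miR-150-5p (log2 fold change 0.05). Of the 4, miR-142a-5p, at only 0.741 to 2.43 CPM per library, was likewise higher in PND (log2 fold change 0.51, groups not overlapping). The log2 fold change was 0.44 for miR-142a-3p and -0.23 for miR-223-3p, and the groups overlapped for both. The 3 red blood cell markers summed to 47.0 to 99.5 CPM in PND and 31.9 to 54.5 CPM in CON, and 1 of them had no read in at least 1 library. None of these markers had an adjusted p under 0.05, and their part in the levels of miR-132 and miR-212 was not tested.

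By Pearson's r over the 6 libraries, given as a description, miR-132-3p was most like miR-26a-5p (0.96), let-7d-5p (0.93), let-7e-5p (0.90), miR-125a-5p (0.89) and miR-744-5p (0.88). miR-212-3p was most like miR-222-3p (0.98), miR-425-3p (0.95), let-7f-1-3p (0.95), miR-674-5p (0.93) and miR-3083-5p (0.93). Among the other arms of the cluster, the r of miR-212-3p was 0.89 with miR-132-5p, 0.25 with miR-132-3p and -0.19 with miR-212-5p, and that of miR-132-3p was 0.41 with miR-132-5p and 0.59 with miR-212-5p.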
